A study of Mus musculus with 15 samples.

Results

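Solute carriers are membrane proteins that move ions, sugars, amino acids, nucleotides, vitamins and metals across the plasma membrane and across the membranes of organelles. Most members of the Slc25 family sit in the inner mitochondrial membrane, where they exchange ADP for ATP and carry phosphate, citrate, malate and other metabolites. In heart muscle these carriers link the mitochondria to the contractile apparatus, while plasma membrane carriers bring in fuel, creatine and taurine and set the acidity inside the cell. The carriers described here were all non-control probe sets of a one-colour array whose single symbol in the platform annotation starts with Slc. Slc8a1, Slc2a4, Slc27a1 and Slc25a20, with 7 probe sets, were left out by the rule, and a probe set with several symbols was not used. This gave 150 genes in 40 families, read by 181 probe sets (sets of short probes to 1 transcript), out of 12422 non-control probe sets. Slc9a3r1, Slc9a3r2 and Slc4a1ap carry such symbols but encode adaptor proteins that bind a carrier, and they were kept under the rule. Where a gene had several probe sets, each was treated separately, and not all of them are named below.

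The RNA was total RNA of mouse heart left ventricle, measured on 15 arrays in a series on hypertrophy from pressure overload. By the labels, the sham group held 3 arrays of females and 6 of males, and the group with the operation named TAC held 3 of each sex, with no other treatment or genotype named. The labels number the arrays sham 1 to 9 and TAC 1 to 6, and these numbers are used below. The sources used here do not give strain, age, time after the operation or the number of animals behind a sample. The p-values therefore reflect the spread among these arrays alone, and that spread may be technical. In a piece of ventricle, fewer cells of a type and less RNA per cell cannot be told apart.

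The median probe-set intensity of an array lay between 21.3 and 26.7 in an arbitrary unit, lowest on female TAC 1, which also had the lowest mean correlation with the other arrays (0.936). The number of arrays limits the precision. All 7 cardiomyocyte markers with a probe set were tested, 5 of the 7 with values below 0, such as Myh6 with -0.32 ± 0.13 (SE, adjusted p = 0.559), and none was called. Their summed intensity was 24730 to 28380 on sham and 23920 to 28900 on TAC arrays. Of 6 tested fibroblast markers 5 had higher means with TAC, with a summed intensity of 1070 to 1501 on sham and 1425 to 2335 on TAC arrays and 1 call, Postn. Endothelial, leukocyte, red blood cell, fat cell and nerve markers had no call, their summed ranges overlapped between sham and TAC, and no marker on any list was at 0 on every array. The part of these shifts in the values of the carriers was not tested.

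The comparison asked how transcript levels of the carriers differed between all TAC and all sham hearts, as the mean of the female and the male difference. No carrier passed the test. With intensities floored at 20, the largest difference was in a probe set of the nucleoside transporter Slc29a1, which was 1.55-fold lower with TAC. The other, brighter Slc29a1 probe set was 1.11-fold lower. Next in size were lower values of Slc27a5, Slc34a2 and Slc3a1 and a higher value of the mitochondrial carrier Slc25a14. With a lower floor the differences of Slc27a5 (-1.09) and Slc25a14 (0.78) were larger than that of the first Slc29a1 probe set. The great majority of the tested carriers, among them the muscle adenine nucleotide translocator Slc25a4 and the creatine transporter Slc6a8, differed by less than 1.5-fold within their 95% intervals. For dim carriers the floor can make these intervals too narrow.

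Intensities were floored at 20 and put on the log2 scale, and the 60% of all probe sets with the highest means were tested. Of the 181 solute carrier probe sets 112 passed this filter, or 61.9%, and they stood for 100 genes in 35 families. limma called none of the 112 at an adjusted p under 0.05, where 24 of all 7453 tested probe sets (0.322%) were called. An unadjusted p under 0.05 was found for 9 carriers (8.04%, against 7.51% of all tested). There were 3 carriers with higher values (2.68%, against 2.86% of all tested) and 6 with lower values (5.36%, against 4.66%), so the shares lay near those of the array as a whole. Without any 1 array the count with higher values was 0 to 4 and that with lower values 4 to 8. The higher count was 0 without male TAC 5 or male sham 6. It was 1 without female TAC 2, female sham 2 or male sham 4, 5, 8 or 9. The shares of all tested probe sets in these fits are not given here.

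The log2 differences of the 112 carriers ran from -0.63 to 0.42 with a median of -0.03, equal to the median of -0.03 over all tested probe sets. The difference was below 0 for 64 of them (57.1%), against 58.2% of all tested. This split moved with the level of the arrays: with each array centred on its median, 46 of the 112 were below 0, against 42.3% of all tested. In no carrier did all 6 TAC arrays lie above, or all 6 below, the 9 sham arrays, where 0.255% and 0.161% of all tested probe sets did so. The 95% interval lay within 1.5-fold in either direction for 97 of the 112 (86.6%, against 86.8% of all tested), and within 2-fold for 111 (99.1%, against 98.8%). The exception was the r_at probe set of Slc29a1.

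**Figure D1:**
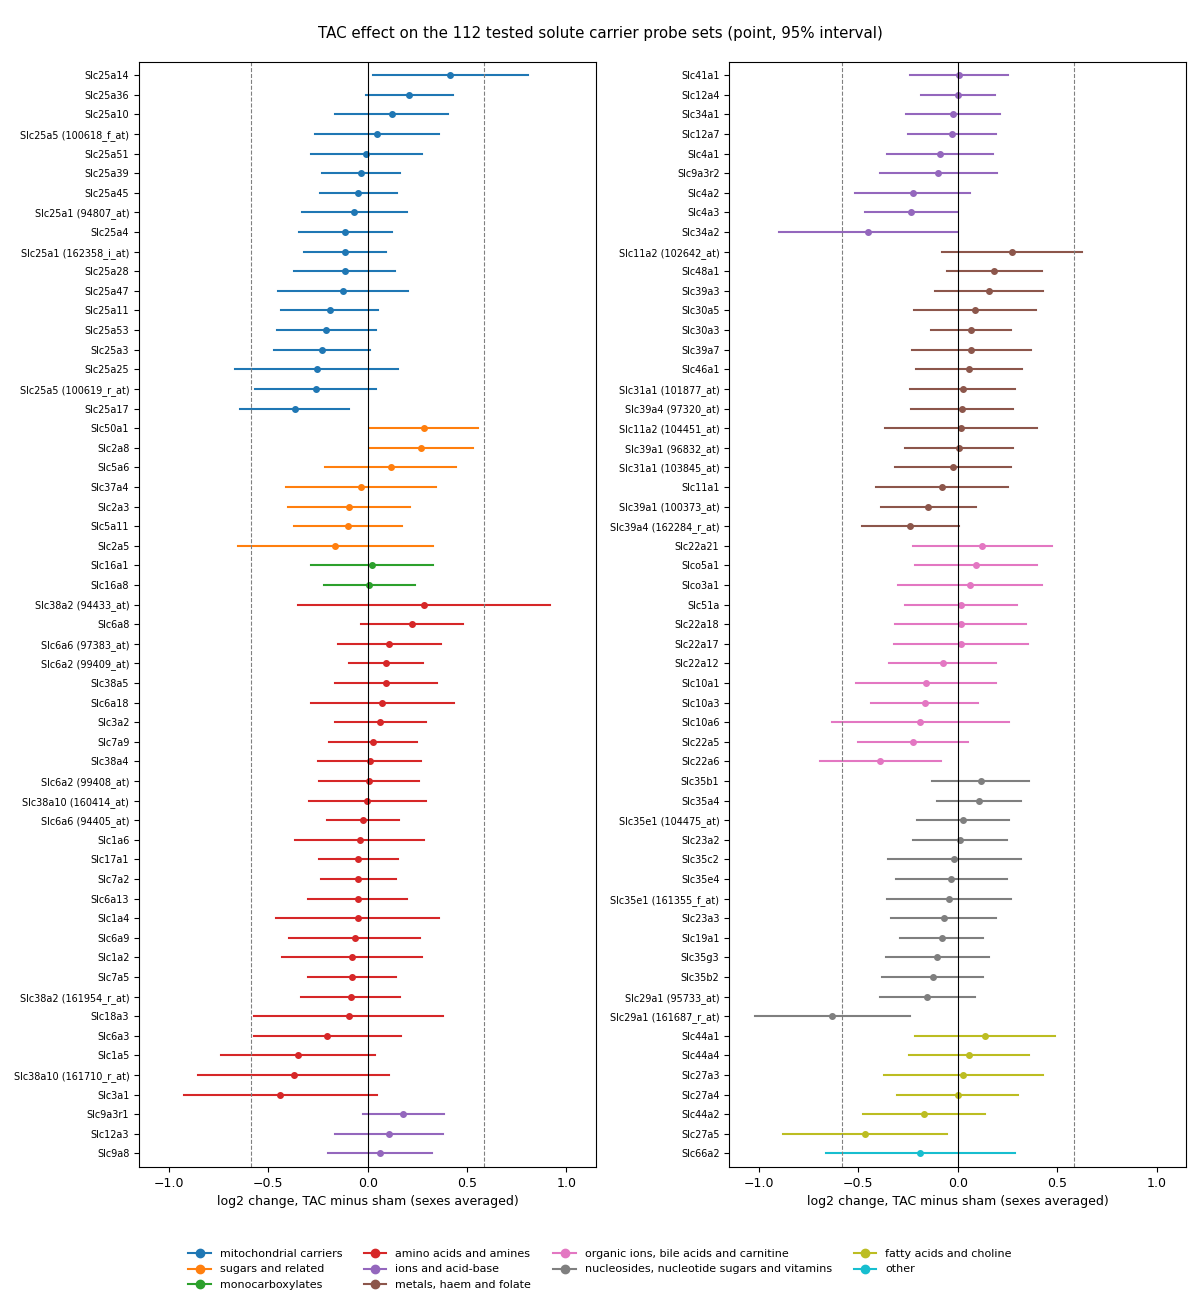
Log2 difference between TAC and sham hearts (x axis, sexes averaged) for each of the 112 tested solute carrier probe sets (y axis), grouped by substrate in colour. Points are limma estimates, lines are 95% intervals and dashed lines mark 1.5-fold; 97 intervals lie between the dashed lines, and the median is -0.03.

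The mitochondrial carriers were the largest family, with 23 probe sets of 19 genes, of which 18 probe sets of 16 genes were tested. None was called, and 14 of the 18 had a log2 difference below 0, against 58.2% of all tested. Their median was -0.11, where the median of all tested probe sets was -0.03. With median-centred arrays 11 of 18 were below 0 with a median of -0.05, against 42.3% and a median of 0.03 over all tested. Without female TAC 1 it was again 11 of 18 with a median of -0.05, against 49.6% and 0.0013 over all tested. The Slc25 median relative to sham of the same sex was lowest on male TAC 5 (-0.21), female TAC 1 (-0.16) and male TAC 4 (-0.13), and on male TAC 6 it was 0.04. On the same arrays the median of all tested probe sets was -0.04, -0.15, -0.04 and 0.04. On female TAC 2 and 3 the Slc25 median was -0.02 on each, against 0.04 and -0.0027 over all tested. Among sham arrays the Slc25 median lay between -0.10 (male sham 7) and 0.08 (male sham 5). The median of all tested probe sets was -0.06 on male sham 7 and 0.05 on male sham 5.

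Slc25a4, the adenine nucleotide translocator of heart and skeletal muscle, had intensities of 3791, 4024 and 3793 on the female sham arrays. The male sham arrays lay between 2716 and 4141 with a median of 3915. With TAC the values were 3557, 3306 and 3794 in females and 3326, 2977 and 4198 in males. Male sham 7 was the lowest of all 15 arrays and male TAC 6 the highest, so the groups overlapped on both sides. limma estimated a log2 difference of -0.11 ± 0.11 (SE), with a 95% interval of -0.35 to 0.12, and it was -0.06 without male TAC 5, -0.18 without male TAC 6 and -0.05 with median-centred arrays. Slc25a5, the translocator isoform found in many tissues, had 3 probe sets, of which 1 stayed below the floor on all 15 arrays. Its f_at probe set gave 0.05 ± 0.15 and its r_at probe set -0.26 ± 0.14 (SE), so that they differed in sign. The f_at value was below 0 without male sham 7 (-0.02) or male TAC 6 (-0.08) and with array weights (-0.02). The f_at suffix marks probes shared within a sequence family, so transcripts of close relatives may add to that value.

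Slc25a11, which exchanges oxoglutarate for malate in the malate-aspartate shuttle, averaged 655 ± 63.6 on sham (SD, n = 9) and 583 ± 102 on TAC arrays (SD, n = 6). Its log2 difference was -0.19 ± 0.12 (SE, adjusted p = 0.770), and the TAC values in males were 523, 414 and 692. Male TAC 5 was the lowest of the 15 arrays, while male TAC 6 lay among the sham values. The difference was -0.10 without male TAC 5 and -0.29 without male TAC 6. Slc25a3, the phosphate carrier that supplies ATP synthase, had sham values of 62.9, 39.8 and 53.3 in females and between 48.95 and 64.98 with a median of 55.1 in males. Its TAC values were 45.97, 43.1 and 46.6 in females and 52.7, 42.5 and 41.1 in males. Most TAC arrays lay in the lower part of the sham range, with a log2 difference of -0.23 ± 0.11 (SE, adjusted p = 0.686; exact permutation p = 0.0548, two-sided).

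Slc25a17, a carrier of the peroxisomal membrane for coenzyme A and related cofactors, had the smallest p of the family. Sham arrays gave 41.5, 76.9 and 51.4 in females and lay between 45.05 and 60.4 with a median of 51.01 in males. TAC arrays gave 52.1, 48.8 and 39.9 in females and 32.7, 34.95 and 40.2 in males. All 3 male TAC arrays were below all 6 male sham arrays, whereas the female groups overlapped. The TAC effect on the log2 scale was -0.37 ± 0.13 (SE, adjusted p = 0.441), with an exact permutation p of 0.0191 (two-sided, operation labels exchanged within each sex). Other settings over all arrays gave -0.44 to -0.26 with adjusted p of 0.0846 or more, and it was -0.24 without female sham 2.

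Slc25a14, a brain-type uncoupling protein relative, went the other way. All 3 female sham arrays were below the floor, at 17.4, 17.4 and 13.7, and the male sham arrays lay between 2.59 and 32.9 with a median of 19.3. TAC arrays gave 38.4, 17.1 and 15.3 in females and 44.1, 38.5 and 23.6 in males. High TAC values came from female TAC 1, male TAC 4 and male TAC 5, and the other TAC arrays lay within the sham range. On the log2 scale the difference was 0.42 ± 0.18 (SE, adjusted p = 0.611), and it was 0.78 with a lower floor, since values under 20 were counted as 20. Without female TAC 1 it was 0.26. Slc25a36, a carrier of pyrimidine nucleotides, was likewise below the floor on all 6 male sham arrays and had 0.21 ± 0.10 (SE).

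Slc25a1, the citrate carrier, had -0.11 and -0.07 in its 2 tested probe sets, on the log2 scale. Slc25a25, a carrier of ATP-magnesium and phosphate, had -0.26 ± 0.19 (SE). Female TAC 1 gave 29.2 for it, while the other 14 arrays lay between 74.1 and 115.9. Slc25a10, the dicarboxylate carrier, had 0.12, Slc25a28, an iron importer, -0.12, Slc25a39, an importer of glutathione, -0.03, and Slc25a51, a carrier of NAD, -0.0069. Slc25a45, Slc25a47 and Slc25a53 had -0.05, -0.12 and -0.21. Slc25a15, Slc25a44, Slc25a48 and further probe sets of Slc25a5 and Slc25a51 did not pass the filter.

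**Figure D2:**
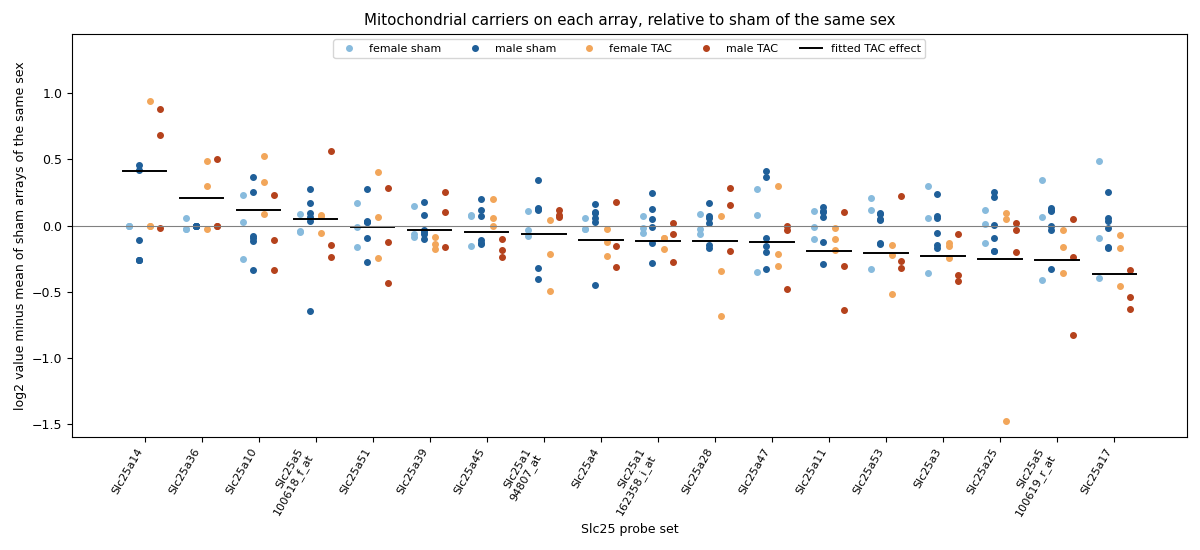
Log2 value of each array minus the mean of the sham arrays of the same sex (y axis) for the 18 tested Slc25 probe sets (x axis, ordered by the fitted TAC effect, black line). Points are arrays coloured by group; sham and TAC points overlap for every carrier, and 14 of the 18 black lines lie below 0.

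Sugar carriers and their family relatives had 12 probe sets in Slc2, Slc5, Slc37 and Slc50, among them the multivitamin transporter Slc5a6. Of these 7 were tested and 2 had an unadjusted p under 0.05, both with higher values, where 2.86% of all tested probe sets did so. Slc2a8, a glucose transporter held mostly inside the cell, had sham values of 33.7, 30.99 and 38.3 in females and between 37.7 and 55.9 with a median of 44.3 in males. TAC arrays gave 36.4, 52.9 and 50.3 in females and 51.5, 48.3 and 47.00 in males. In females TAC 2 and 3 lay above all sham arrays, but in males every TAC value lay within the sham range. This gave a log2 difference of 0.27 ± 0.12 (SE, adjusted p = 0.619; exact permutation p = 0.0673). A second Slc2a8 probe set did not pass the filter, with 13 of 15 arrays below the floor. Its means were 13.9 on sham and 8.90 on TAC arrays. Slc50a1, a sugar exporter related to plant sugar transporters, had 34.99, 25.9 and 34.3 on female sham arrays and lay between 19.9 and 31.9 with a median of 24.99 on male sham arrays. Its TAC values were 31.2, 44.3 and 32.2 in females and 31.6, 36.8 and 33.5 in males. Female TAC 2 was its highest array, and the lowest TAC value in each sex lay within the sham range. Its difference was 0.28 ± 0.13 (SE, adjusted p = 0.624; exact permutation p = 0.0464). Slc2a3 and Slc2a5, transporters of glucose and fructose, had -0.09 and -0.16, and for Slc2a5 female TAC 1 was listed at 0 while the other 14 arrays lay between 19.1 and 72.3. Slc37a4, which brings glucose 6-phosphate into the endoplasmic reticulum, had -0.03. Slc2a1, the widespread basal glucose transporter, was below the floor on all 15 arrays and could not be compared. Slc16a1, a lactate and pyruvate transporter, had a difference of 0.02 ± 0.15 (SE), and Slc16a8 had 0.0092.

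Carriers of amino acids and amines held 46 probe sets, of which 26 were tested. Of these 16 had values below 0, against 58.2% of all tested. None had an unadjusted p under 0.05, against 7.51% of all tested. Slc6a8, which takes creatine into the cell, averaged 107 ± 16.1 on sham (SD, n = 9) and 124 ± 16.3 on TAC arrays (SD, n = 6). In females the TAC values of 121, 138 and 132 were above the sham values of 104, 107 and 106, whereas the male TAC values of 99.1, 114 and 142 overlapped a sham range of 79.3 to 137. limma estimated a log2 difference of 0.22 ± 0.12 (SE, adjusted p = 0.740), with an interval of -0.03 to 0.48. Slc6a6, the taurine transporter, had 0.11 ± 0.12 in 1 and -0.02 ± 0.09 (SE) in the other probe set.

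Slc6a2, the noradrenaline transporter of sympathetic nerve endings, was among the most tightly measured carriers. Sham arrays gave 282, 314 and 282 in females and lay between 226 and 286 with a median of 272 in males. TAC arrays gave 285, 314 and 324 in females and 261, 304 and 294 in males. The TAC effect on the log2 scale was 0.09 ± 0.09 (SE), with an interval of -0.09 to 0.28, and the second probe set gave 0.0065. Nerve markers with a tested probe set, Th and Mbp, had 0.05 and 0.12. Slc6a9 and Slc6a13, carriers of glycine and of gamma-aminobutyric acid, had -0.07 and -0.05, and Slc6a18, a neutral amino acid carrier of kidney, had 0.07.

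Slc3a1 and Slc3a2 are the heavy chains that bring light-chain amino acid transporters to the membrane. Slc3a2 had 0.06 ± 0.11 and its light-chain partner Slc7a5 -0.08 ± 0.10 (SE), with intervals of -0.17 to 0.29 and -0.30 to 0.14. Slc3a1 had -0.44 ± 0.23 (SE, adjusted p = 0.712), with male TAC values of 75.3, 36.05 and 132. Male TAC 5 was its lowest array, and the difference was -0.19 without it. Slc1a5, a glutamine and neutral amino acid exchanger, had -0.35 ± 0.18 (SE). Female sham 1 and 3 were its highest arrays, at 45.02 and 44.3. The other Slc1 members Slc1a2, Slc1a4 and Slc1a6 had -0.08, -0.05 and -0.04. Slc38a2, a sodium-coupled neutral amino acid transporter, had the widest error of all carriers: 0.28 ± 0.30 (SE) in 1 probe set, with single arrays between 10.5 and 68.8, and -0.08 ± 0.12 in its r_at probe set. Slc38a4, Slc38a5 and the first Slc38a10 probe set had 0.01, 0.09 and -0.001, and the r_at Slc38a10 probe set -0.37. Male TAC 4 was listed at 0 for this last one, while the other 14 arrays lay between 35.7 and 87.8. Slc7a2, a cationic amino acid transporter, had -0.05.

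Ion and acid-base carriers held 23 probe sets, of which 12 were tested. Slc4a3, the chloride and bicarbonate exchanger that loads acid into heart muscle cells, had the smallest p among them. Its sham values were 275, 256 and 255 in females and between 209 and 330.3 with a median of 238 in males. With TAC they were 205, 244 and 214 in females and 231, 202 and 221 in males. Every female TAC array was below every female sham array, and in males TAC 5 lay below the sham range and the other TAC arrays in its lower part. On the log2 scale the difference was -0.24 ± 0.11 (SE, adjusted p = 0.639; exact permutation p = 0.0185), or 1.18-fold lower, and other settings over all arrays gave -0.25 to -0.18. Slc4a2, the widely expressed exchanger of the same family, had 32.4, 17.2 and 26.7 on female sham arrays and between 18.9 and 33.01 with a median of 27.7 on male sham arrays. TAC gave 26.9, 17.7 and 27.8 in females and 23.3, 19.9 and 15.8 in males, so the female groups overlapped throughout and 5 of the 15 arrays were below the floor. Its difference was -0.23 ± 0.14 (SE, adjusted p = 0.762; exact permutation p = 0.149), and -0.15 without female sham 1. Slc4a1, the anion exchanger of red blood cells, had -0.09 ± 0.13 (SE), and the red blood cell markers Hba-a1, Alas2 and Epb42 had -0.03, -0.05 and 0.14.

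Slc34a2, a sodium-phosphate cotransporter known from lung and intestine, had -0.45 ± 0.21 (SE, adjusted p = 0.655; exact permutation p = 0.0988). Its female sham values of 62.6, 22.9 and 41.2 overlapped the female TAC values of 23.9, 22.6 and 37.04. In males sham arrays lay between 24.2 and 53.8 with a median of 34.9, and the TAC values of 27.4, 31.4 and 26.5 fell inside that range. The difference was -0.28 without female sham 1. The kidney cotransporter Slc34a1 had -0.03. The potassium-chloride cotransporters Slc12a4 and Slc12a7 had 0.0022 ± 0.09 and -0.03 ± 0.10 (SE). Slc9a8, a sodium-proton exchanger of the Golgi, had 0.06 ± 0.12 (SE). Slc9a3r1, the adaptor that anchors a sodium-proton exchanger, averaged 141 ± 10.4 on sham (SD, n = 9) and 160.00 ± 20.6 on TAC arrays (SD, n = 6). Its difference was 0.18 ± 0.10 (SE, adjusted p = 0.732; exact permutation p = 0.0679).

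Carriers of metals, haem and folate held 24 probe sets, of which 15 probe sets of 11 genes were tested. Of the 15, 11 had values above 0 and 4 below, where 58.2% of all tested were below 0. Their median was 0.02, against -0.03 over all tested. Slc11a2, an iron transporter, had 0.27 ± 0.17 in 1 probe set and 0.02 ± 0.18 (SE) in the other. The first was 0.15 without female sham 2 and 0.41 without female sham 3. Slc11a1, the metal transporter of macrophage phagosomes, had -0.08 ± 0.16 (SE), and tested macrophage and leukocyte markers had a median of -0.04. Slc48a1, which carries haem out of lysosomes, averaged 63.6 ± 10.02 on sham (SD, n = 9) and 72.1 ± 4.12 on TAC arrays (SD, n = 6), a difference of 0.18 ± 0.11 (SE) that was 0.07 without female sham 1. Slc31a1, the copper importer, had -0.02 and 0.02 in its probe sets. Among zinc carriers, the r_at probe set of Slc39a4 had -0.24 ± 0.12 (SE, adjusted p = 0.677) and its other probe set 0.02, while Slc39a3, Slc39a7, Slc30a3 and Slc30a5 had 0.16, 0.07, 0.07 and 0.08. The folate and haem carrier Slc46a1 had 0.06.

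Slc29a1, the main equilibrative transporter of adenosine and other nucleosides, gave the smallest unadjusted p of all carriers in its r_at probe set. Sham arrays gave 37.1, 55.3 and 51.99 in females and lay between 8.70 and 45.6 with a median of 38.5 in males. TAC arrays gave 19.7, 28.99 and 37.9 in females and 26.6, 19.6 and 28.9 in males. Male sham 6, at 8.70, was below the floor and was the lowest of all, while the other 5 male sham arrays lay above all 3 male TAC arrays. This gave a log2 difference of -0.63 ± 0.18 (SE, 95% interval -1.02 to -0.24, adjusted p = 0.268; exact permutation p = 0.0149). Without male sham 6 it was -0.71 (adjusted p = 0.0773), the lowest adjusted p of any named carrier for the averaged difference in any alternative. The other Slc29a1 probe set gave -0.15 ± 0.11 (SE, adjusted p = 0.812), with sham values of 98.7 to 163 around TAC values of 102 to 143. The difference of 0.48 between the estimates was the largest among the 12 genes with 2 tested probe sets, and 7 of those 12 pairs had opposite signs.

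The Slc35 family, which carries nucleotide sugars into the Golgi and endoplasmic reticulum, had 8 tested probe sets with differences from -0.13 to 0.12, and each interval lay within 1.5-fold. Slc35a4, a member of the family chosen by the rule, had 0.11 ± 0.10 (SE, adjusted p = 0.872; exact permutation p = 0.164), with 10 of 15 arrays below the floor. The ascorbate transporter Slc23a2 and the reduced folate carrier Slc19a1 had 0.01 and -0.08. Among carriers of organic ions and bile acids 12 of 20 probe sets were tested. Slc22a6, an organic anion transporter known from kidney, had sham values of 52.4, 40.9 and 38.4 in females and between 30.3 and 52.7 with a median of 37.4 in males. TAC gave 39.8, 32.7 and 36.7 in females and 20.1, 28.5 and 33.2 in males. Male TAC 4 was its lowest array, just above the floor, and the groups overlapped in both sexes. Its difference was -0.39 ± 0.14 (SE, adjusted p = 0.476; exact permutation p = 0.0113). Slc22a5, the carnitine transporter that supplies fatty acid oxidation in heart, had -0.23 ± 0.13 (SE, adjusted p = 0.754), with 4 of 15 arrays below the floor. Slc22a21, a further carnitine transporter, had 0.12, and Slc22a12, a urate transporter of kidney, -0.08. Slc10a1, Slc10a3 and Slc10a6 had -0.16, -0.17 and -0.19.

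Slc27a5, an enzyme of liver that activates bile acids and very long fatty acids, had the second largest difference in size among the 112 carrier probe sets, with the floor at 20. Sham arrays gave 39.3, 22.9 and 29.9 in females and lay between 27.1 and 46.01 with a median of 41.6 in males. TAC arrays gave 32.4, 20.9 and 0 in females and 11.2, 17.7 and 44.4 in males. Female TAC 3 was listed at 0 and male TAC 6 was as high as sham, so the TAC arrays were the more scattered group. limma estimated a log2 difference of -0.47 ± 0.20 (SE, adjusted p = 0.580; exact permutation p = 0.0405), and -1.09 with the lower floor. The fatty acid carriers Slc27a3 and Slc27a4 were below the floor on 11 and 10 of 15 arrays, and Slc44a1, a choline transporter, had 0.14. Slc66a2, which fits none of these groups, had -0.19, with female TAC 1 at 13.7 and the other 14 arrays between 46.1 and 75.2.

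**Figure D3:**
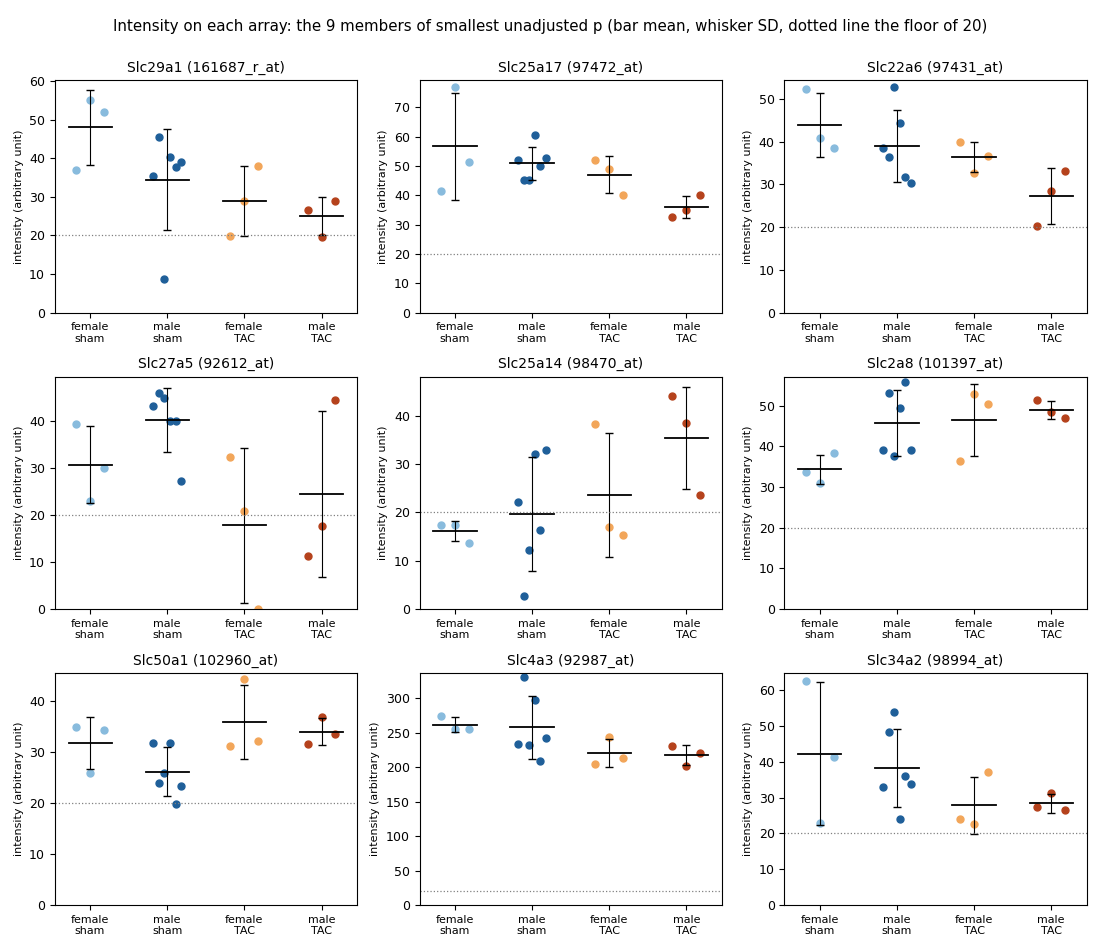
Intensity on each array (y axis, arbitrary unit) in the 4 groups (x axis) for the 9 probe sets with an unadjusted p under 0.05; bars are means, whiskers SD and the dotted line the floor of 20. Sham and TAC arrays overlap in every panel, and none of the 9 had an adjusted p under 0.05.

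Taken sex by sex, 4 carriers in females (3.57%, against 4.59% of all tested) and 7 in males (6.25%, against 6.20%) had an unadjusted p under 0.05, and limma called none in either sex. The background of calls was 0.0805% in females and 0.134% in males. The sign was the same in both sexes for 65 of the 112 carriers (58.0%, against 58.1% of all tested). A direct test of whether the TAC effect differed by sex called no carrier, and no probe set of the whole array (0%). Only Slc39a1 and Slc6a3 had an unadjusted p under 0.05 for that difference (1.79%, against 2.56% of all tested).

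Slc39a1, a zinc importer of the plasma membrane, had the smallest such p, in 1 of its probe sets. Female values were 110.01, 136 and 139 in sham and 78.7, 87.1 and 77.01 in TAC hearts, and these groups did not overlap. Male sham values lay between 74.95 and 116 with a median of 104, and the male TAC values were 133, 116 and 135. The log2 difference between TAC and sham was -0.66 ± 0.17 (SE, adjusted p = 0.519) in females and 0.36 ± 0.15 (SE, adjusted p = 0.722) in males. The female effect minus the male effect was -1.02 ± 0.23 (SE), with an adjusted p of 1.00. Over the alternatives this value stayed between -1.13 and -0.86, with adjusted p of 0.346 or more. The other Slc39a1 probe set gave other values, with female TAC values of 98.6, 196 and 112 around sham values of 131, 152 and 124. Its sex difference was -0.14 ± 0.26 (SE). Slc6a3, the dopamine transporter, had -0.82 ± 0.35 (SE, adjusted p = 1.00) and Slc23a2 -0.44 ± 0.22 (SE, adjusted p = 1.00). For Slc6a3 the female values were 47.1, 58.5 and 49.4 in sham and 21.2, 41.2 and 43.5 in TAC hearts, lowest on female TAC 1. Its difference averaged over the sexes was -0.20, and -0.04 without that array.

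**Figure D4:**
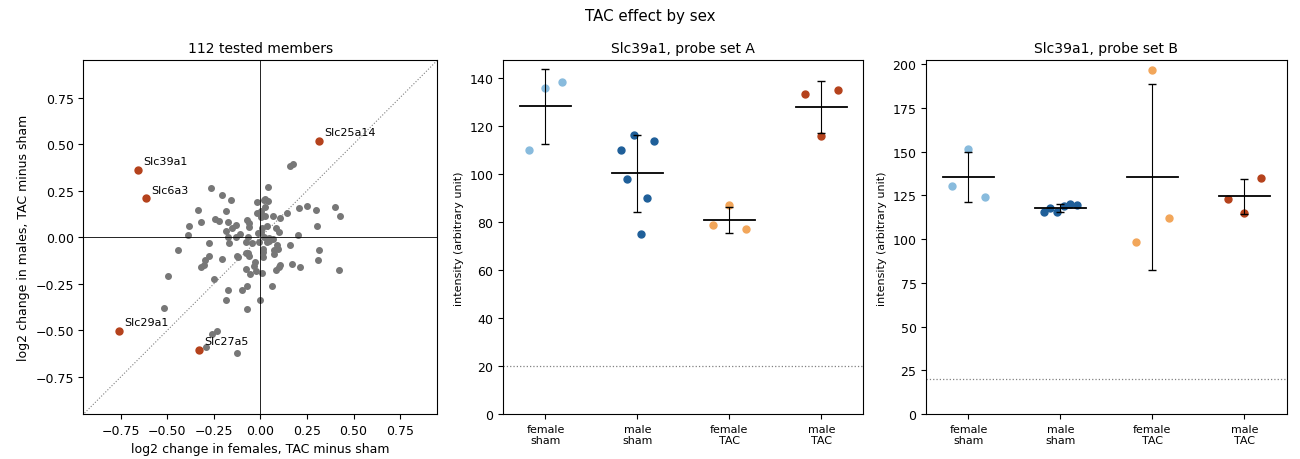
Left: log2 difference between TAC and sham in females (x axis) against males (y axis) for the 112 tested carriers. Middle and right: intensity (arbitrary unit) of Slc39a1 by group in the probe set with the sex difference (A) and in the other (B), with mean (bar), SD (whisker) and the floor of 20 (dotted line); the female groups separate in the middle panel and overlap in the right panel.

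A further 69 probe sets did not pass the filter, and 50 genes had no tested probe set. The means of the 69 reached at most 18.6 over the sham and 17.4 over the TAC arrays. Of the 69, 45 were below the floor on all 15 arrays, and they included the phosphate importer Slc20a1, the cystine exchanger Slc7a11 and the sulfate transporters Slc26a1 and Slc26a2. Slc4a4, a sodium-bicarbonate cotransporter, and Slc12a2, a sodium-potassium-chloride cotransporter, were at or above the floor on 4 arrays each, and Slc7a1, a cationic amino acid transporter, on 4 sham arrays. Fitted without the filter, limma gave none of the 69 an adjusted p under 0.05, and none had an unadjusted p under 0.05. The floor hides any difference below it, so for these genes a difference was not detectable rather than absent.

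Other genes of transport were read beside the carriers: 44 genes for uncoupling proteins, mitochondrial porins, sodium and calcium pumps, carbonic anhydrases, hexokinases and carrier partners. Of these 27 were tested and none was called by limma. 8 had values above 0 and 19 below, with a median of -0.05, against 58.2% below 0 over all tested probe sets. An unadjusted p under 0.05 was found for 2, both with lower values, where 4.66% of all tested had one. These were Car14, a membrane carbonic anhydrase of muscle, with -0.70 ± 0.17 (SE, adjusted p = 0.125), and Abcc9, the regulatory subunit of a cardiac potassium channel, with -0.55 ± 0.15 (SE, adjusted p = 0.213). The third by p was the fatty acid translocase Cd36, with -0.25 ± 0.13 (SE, adjusted p = 0.734).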

How the data were processed

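The samples were total RNA of the left ventricle of mice, on 15 one-colour arrays. The deposited series table holds probe-set intensities, on a linear scale in an arbitrary unit by their values; for the authors' software, background correction and scaling, none is named in the labels (not given in the sources used here). In all, 66 control probe sets were left out. Intensities were floored at 20, the higher of 20 and the 30th percentile of all pooled values (11.9), and between 42.4% and 48.4% of an array lay below it. The brightest 60% by mean log2 value, 7453 probe sets, were fitted with limma 3.58.1 in R 4.3.3 (lmFit and eBayes, 1 mean for each of the 4 groups). The main contrast was TAC minus sham averaged over the sexes, and Benjamini-Hochberg adjustment ran over every tested probe set. No carrier's p was adjusted over the carriers alone. Single values were also compared by exact permutation of operation labels within each sex, 1680 in all, two-sided; the smallest p this allows is 0.000595. limma's fit was tested on simulated data.

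Symbols came from the platform annotation, and all 181 were the same in the RefSeq table of assembly GRCm38.p6. The members and lists were chosen with earlier results of these data known. Carriers chosen by rule, for the exact permutation test and the alternatives, were the 10 higher and 10 lower values of smallest p with the same sign in both sexes, the 12 brightest, the 3 of smallest p for the sex difference, and Slc4a2, 34 probe sets in all; any call would have been added. Of the partner list the 3 of smallest p were named. The partner list and the cell type markers (cardiomyocyte, endothelial cell, fibroblast, smooth muscle, leukocyte, red blood cell, fat cell, nerve, atrium) were fixed with the design. Smooth muscle and atrial markers had medians of -0.31 and -0.21 and no call. The summed intensity of the atrial markers varied widely, from 92.2 to 540 on sham and from 169.6 to 514.5 on TAC arrays. That of the smooth muscle markers was 112.1 to 152.1 on sham and 81.65 to 146.6 on TAC arrays. The part of these markers in the values of the carriers was not tested. Same-numbered sham and TAC arrays deviated together in females (correlations of 0.244, 0.270 and 0.117) but not in males (0.0641, -0.0828 and 0.0136), so the numbers were not taken as pairs. The alternatives were 14 settings of scaling, floor, filter, eBayes, weights, model, block and fits within 1 sex, and leaving out each array in turn. Scanner values were not used here, so no other background correction was tried.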

Additional observations from a re-analysis of the deposited data

Results flagged for a closer look

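The 6 male sham arrays were examined for a value far from the other 5 in each of the 112 tested probe sets; 12 were found (10.7%), against 9.51% of all 7453 tested probe sets, and chance gives about 1 in 20 where values are not tied. The rule ran on log2 values floored at 20. In 5 of the 12 (Slc27a3, Slc27a4, Slc35a4, Slc44a1 and Slc6a6) only 1 array was above the floor, which meets the rule by construction. On the intensities as deposited 6 carrier probe sets met it (5.36%, against 6.76% of all tested): Slc25a4, the f_at probe set of Slc25a5, Slc27a3, Slc27a5, the r_at probe set of Slc29a1 and Slc44a1. Male sham 7 was the lowest for Slc25a4 (2716, others from 3775), for both tested Slc25a5 probe sets (102.9, others from 164.6; 37.99, others from 46.6) and for Slc6a18 (68.4, others from 134.7), and the highest for Slc35a4 (26.0, others up to 19.1). Male sham 6 was the lowest for the r_at Slc29a1 probe set (8.70, others from 35.3) and the highest for Slc23a2 (23.8, others up to 21.2, met only with the floor). Male sham 9 was the lowest for Slc27a5 (27.2, others from 40.03) and the highest for Slc27a3 (49.8, others up to 12). Near the floor, male sham 8 was the highest for Slc44a1 (27.3, others up to 19.9) and for 1 Slc6a6 probe set (22.2, others up to 17.5), and male sham 4 for Slc27a4 (22.0, others up to 17.7). The part of these arrays in the differences was not tested beyond leaving each out.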

How the results depend on the processing

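In the averaged comparison and in males no carrier was called in any of the alternatives run or without any 1 array, and the same held for the difference between the sexes. In females 1 carrier probe set was called with array weights, and none otherwise. It was the Slc39a1 probe set with the sex difference, with -0.73 ± 0.13 (SE, adjusted p = 0.0224). The other Slc39a1 probe set had -0.06 ± 0.19 (SE) in females in the main fit. The share of all probe sets called in females with array weights is not given here. The count of carriers at an unadjusted p under 0.05 in the averaged comparison was 3 higher and 6 lower. These were 2.68% and 5.36% of the carriers, against 2.86% and 4.66% of all tested. For the alternatives the shares of all tested probe sets at this threshold are not given here. Their counts therefore do not separate the carriers from the array as a whole. The count became 6 higher and 3 lower with median-centred arrays, and 1 higher and 3 lower with the stricter filter (72 carriers tested). The higher count was 1 with trended eBayes and 8 with array weights, and the cause was not tested. Without 1 array it was 0 to 4 higher and 4 to 8 lower. With the replicate block (number in the title, correlation 0.139) it was 4 higher and 8 lower, and no carrier was called. Over all probe sets the calls in the averaged comparison numbered 24. They numbered 10 with the lower floor, 13 with no filter, 38 with the replicate block, 42 with quantile normalization, 44 with median-centred arrays, 68 with array weights and 12 to 29 without 1 array. Of 900 comparisons of the 34 named carriers with an alternative, 9 changed the sign of the log2 difference, in 3 carriers with differences of 0.07 or less. The floor and the spread between arrays limit what could be seen: the median carrier had a 95% interval of ± 0.27 on the log2 scale in the averaged comparison, ± 0.41 in females and ± 0.36 in males.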
